A study of Homo sapiens with 2 samples.

Results

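Claudins are the membrane proteins that form the strands of tight junctions, the contacts that seal the space between neighbouring epithelial cells. Each claudin spans the membrane and pairs with claudins of the next cell, some sealing the cleft and others forming pores for ions, while scaffold proteins such as the ZO proteins tie the strands to actin. Claudin-low breast cancers were named for weak expression of CLDN3, CLDN4 and CLDN7, and ZEB1 is a transcriptional repressor of epithelial genes that binds E-box sequences of the form CAGGTG. The 10 claudin genes CLDN1, CLDN3, CLDN4, CLDN6, CLDN7, CLDN8, CLDN9, CLDN11, CLDN12 and CLDN23 were examined here, among the 19970 protein-coding genes annotated on chromosomes 1 to 22 and X. They were taken by name, and every ATAC-seq peak that touched their gene bodies or lay within 20 kb of any of their annotated transcript starts was assigned to them.

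The cells were SUM159, an established claudin-low, mesenchymal triple-negative breast cancer line. Both populations carried the lentiviral vector pLV-KRAB, which expresses dCas9-KRAB, a catalytically dead Cas9 fused to a repressor domain, and both were selected with puromycin. One population had no guide RNA (No gRNA, 0 guides) and the other had 4 guides to the ZEB1 promoter (All gRNA), so the comparison asked how chromatin at claudin genes differed when ZEB1 was targeted. Each population gave 1 ATAC-seq library, an assay in which the transposase Tn5 cuts accessible DNA and so marks open chromatin. There was thus no replicate, every difference below is between these libraries, and intervals hold only the counting error. The No gRNA library had 74757 peaks and the All gRNA library had 75217, and the lowest local backgrounds (0.652 and 0.484 read ends) gave a depth ratio, All gRNA over No gRNA, of 0.743. At ZEB1 itself, the No gRNA library had 2 peaks within 4000 bp of the main start, with pileups of 25 and 27, and the All gRNA library had 0.

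Marker genes were checked through their start sites. A peak lay within 4000 bp of a start for all 8 mesenchymal markers (VIM, ZEB1, ZEB2, SNAI2, TWIST1, CDH2, FN1 and SPARC) in both libraries, ZEB1 in All gRNA only through starts away from its main promoter. Of 10 epithelial markers, 7 had such a peak in No gRNA and 6 in All gRNA, beside 74.3% and 73.9% of all protein-coding genes, with CDH1 in No gRNA only and ESRP1, GRHL2 and OVOL1 in neither. Neither of the 2 leukocyte markers (PTPRC and CD3E) had one in either library. An open start site is not a level of RNA or protein, and the markers say nothing on expression.

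The claudin promoters differed in sequence as well as in openness, and the sequences that the results below turn on are printed here. Entries for 7 of the 10 genes, with 9 promoters in all, were found in the RefSeq promoter table (build GRCh38.p14), which gives 250 bases before to 50 after each start. Capitals mark CAGGTG on either strand (read as CACCTG on the other) or TGANTCA, where N is any base. TGANTCA is a loose form of the motif of AP-1 factors such as FOS and JUN. These motifs do not overlap each other in the sequences shown. The promoters of CLDN12 and CLDN1 lay under peaks in both libraries, while those of CLDN3, CLDN4 and CLDN7 lay under none.
CLDN12 promoter, chr7:90403211-90403510, plus strand: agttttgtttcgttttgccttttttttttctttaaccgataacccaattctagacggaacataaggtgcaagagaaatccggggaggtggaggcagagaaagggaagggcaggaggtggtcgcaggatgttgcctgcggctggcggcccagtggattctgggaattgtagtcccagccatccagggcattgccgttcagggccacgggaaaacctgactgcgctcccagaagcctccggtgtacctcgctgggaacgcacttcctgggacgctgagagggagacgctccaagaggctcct
CLDN1 promoter, chr3:190322397-190322696, minus strand: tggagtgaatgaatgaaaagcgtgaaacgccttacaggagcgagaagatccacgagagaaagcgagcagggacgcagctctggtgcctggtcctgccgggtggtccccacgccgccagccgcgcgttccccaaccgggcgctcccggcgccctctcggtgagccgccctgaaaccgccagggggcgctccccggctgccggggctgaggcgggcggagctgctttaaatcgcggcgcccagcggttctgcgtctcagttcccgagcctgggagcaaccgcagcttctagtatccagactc
CLDN3 promoter, chr7:73770221-73770520, minus strand: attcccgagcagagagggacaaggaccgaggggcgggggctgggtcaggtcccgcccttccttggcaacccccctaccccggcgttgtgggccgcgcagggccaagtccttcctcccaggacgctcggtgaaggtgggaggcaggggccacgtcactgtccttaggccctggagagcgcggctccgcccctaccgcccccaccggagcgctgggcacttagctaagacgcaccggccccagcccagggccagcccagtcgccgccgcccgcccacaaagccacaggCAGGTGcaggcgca
CLDN4 promoter, chr7:73830746-73831045, plus strand: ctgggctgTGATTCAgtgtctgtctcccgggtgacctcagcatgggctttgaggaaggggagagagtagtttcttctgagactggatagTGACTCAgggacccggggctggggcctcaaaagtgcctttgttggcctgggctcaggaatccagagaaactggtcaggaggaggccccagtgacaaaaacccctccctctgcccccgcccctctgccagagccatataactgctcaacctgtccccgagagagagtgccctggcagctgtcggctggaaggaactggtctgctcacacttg
CLDN7 promoter, chr17:7262429-7262728, minus strand: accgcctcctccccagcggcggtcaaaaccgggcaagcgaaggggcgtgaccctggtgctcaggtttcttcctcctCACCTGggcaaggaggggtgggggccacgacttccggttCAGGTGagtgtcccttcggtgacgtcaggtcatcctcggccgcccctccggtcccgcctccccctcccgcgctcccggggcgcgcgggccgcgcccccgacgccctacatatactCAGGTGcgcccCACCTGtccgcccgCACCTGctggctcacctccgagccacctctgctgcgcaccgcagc

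The CLDN7 promoter shown above stood out by 5 copies of CAGGTG, a number reached by 33 of the 35116 promoters in the table (0.0940%). The other CLDN7 promoter in the table held none. The CLDN3 promoter held 1 copy, in the bases after its start, and that of CLDN6 also held 1, whereas those of CLDN1, CLDN4, CLDN11 and CLDN12 held none. In all, 3 of the 9 claudin promoters had the motif, against 20.6% of all promoters. The CLDN4 promoter instead had 2 copies of TGANTCA, read as TGATTCA and TGACTCA. The pattern TGANTCA was found at least once in 7.71% and at least 2 times in 0.515% of promoters. Only 2 of the 9 promoters lay under a peak, and their CpG content fell within the range of the others. The ratio of observed to expected CpG was 0.92 for CLDN1 and 0.65 for CLDN12, which had peaks. Without a peak, it was 0.62 for CLDN3, 0.66 for CLDN6, and 0.81 and 0.39 for the CLDN7 promoter shown and the other one. The main promoter of CLDN11 had a ratio of 0.93 and its other promoter 0.17, both without a peak. That of CLDN4 had the low ratio of 0.19, against a median of 0.58 over the table. These motif matches are letters in a window and were not tested for binding.

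At close range, 5 of the 10 claudins had a peak in each library, which for CLDN6 lay at a neighbouring gene. Within 1000 bp of any own start, 5 of the 10 genes had a peak in No gRNA (CLDN1, CLDN4, CLDN6, CLDN12 and CLDN23) and 5 in All gRNA (CLDN1, CLDN6, CLDN7, CLDN12 and CLDN23), against 68.1% and 67.3% of all protein-coding genes. Within 4000 bp, the distance the study used for promoters, the counts were 7 and 5, against 74.3% and 73.9%. With peaks of a −log10 q of at least 5 they were 7 and 3, and with at least 10 they were 6 and 2. The shares of all genes at these cutoffs were not computed, so these counts have no background. The median −log10 q was 13.7 over the No gRNA list and 10.1 over the All gRNA list. Without a q cutoff, CLDN4 and CLDN11 had a peak within 4000 bp in No gRNA only, a pattern seen in 2.92% of genes. None of the 10 had one in All gRNA only, a pattern seen in 2.56%. Both No gRNA peaks had a pileup of 12 and lay nearest to alternative starts. That of CLDN11 was in an intron, 3142 bp downstream of an alternative start and 21739 bp downstream of the main start. CLDN3, CLDN8 and CLDN9 had a promoter peak in neither library.

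The height of a peak is given as its pileup, the number of read ends stacked over the summit. CLDN12 had the tallest start-site peak in both libraries, with a pileup of 102 (95% Poisson interval 83.2 to 124) in No gRNA and 65 (50.2 to 82.8) in All gRNA. Next came the peak nearest to CLDN6, with 52 (38.8 to 68.2) and 39 (27.7 to 53.3), although it lay at a neighbouring gene. CLDN1 had 27 (17.8 to 39.3) in No gRNA and 8 (3.45 to 15.8) in All gRNA. CLDN23 had 18 (10.7 to 28.4) and 10 (4.80 to 18.4). CLDN4 closed the order in No gRNA with 12 (6.20 to 21.0), and CLDN7 closed it in All gRNA with 5 (1.62 to 11.7). In No gRNA the interval of CLDN12 was clear of that of CLDN6, and all later neighbours in the order overlapped. In All gRNA the interval of CLDN6 was clear of that of CLDN23, and the other neighbours overlapped. Among all genes with a peak within 1000 bp, the CLDN12 peak ranked at percentile 72.1 in No gRNA and 72.3 in All gRNA, where the median gene had pileups of 63 and 40. CLDN1 ranked at percentile 19.5 and 3.89 in the same order, and CLDN23 at 11.1 and 7.11. Thus CLDN12 was the only listed claudin whose own start was above the median gene in either library.

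**Figure D1:**
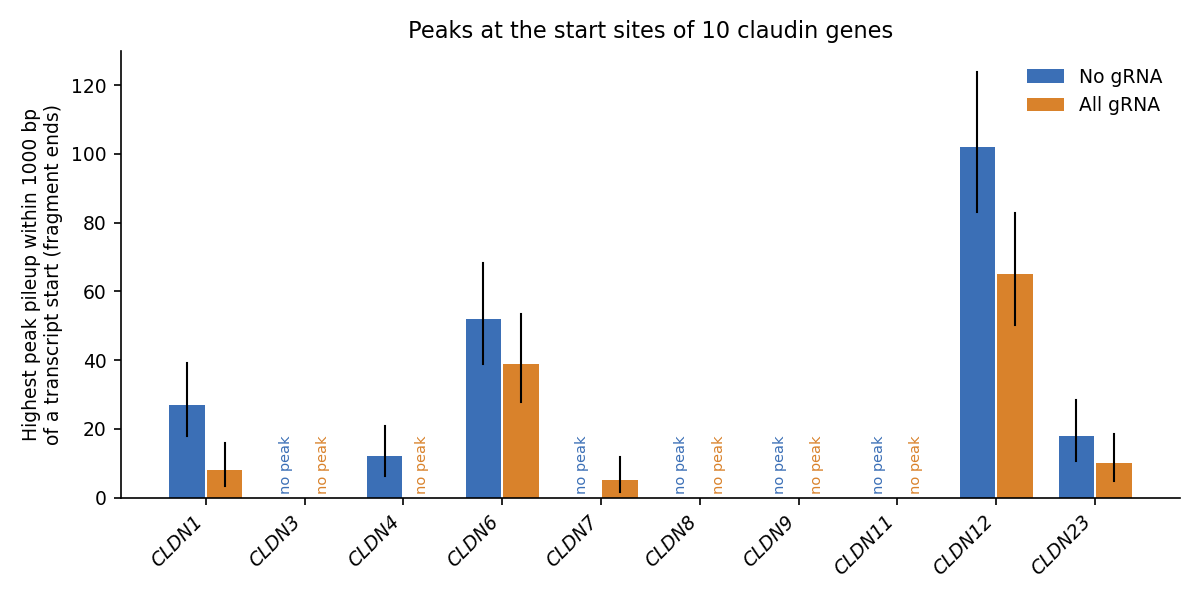
The bars give the highest pileup of any peak within 1000 bp of an annotated start (y axis, read ends at the summit, not scaled for depth) for each of the 10 claudins in the No gRNA and All gRNA libraries, with 95% Poisson intervals as lines. CLDN12 reaches 102 and 65, CLDN1 falls from 27 to 8, and CLDN3, CLDN8, CLDN9 and CLDN11 have no such peak.

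CLDN12 is an atypical claudin that lacks the usual scaffold-binding tail and has been linked to paracellular calcium transport. Its main start (chr7:90403461) sat in a peak of 350 bp in No gRNA (chr7:90403337-90403686) and of 326 bp in All gRNA, and a further peak followed in the first intron (chr7:90403785-90404155). The start-site peak had a depth-scaled ratio, All gRNA over No gRNA, of 0.858 (0.618 to 1.18), and the intronic one, with pileups of 74 and 52, a ratio of 0.946 (0.650 to 1.37). Neither interval left out 1. An alternative start within an intron of GTPBP10 had a small peak of 7 and 5. Downstream the long gene body overlaps PTTG1IP2 and CDK14, and a peak there had 24 and 18 (ratio 1.01, 0.516 to 1.94). The remaining peaks of this gene were low and present in a single list, with pileups of 12 and 13 in No gRNA and of 12, 7 and 13 in All gRNA.

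CLDN1 seals the epidermal barrier and is one of the claudins expressed by breast epithelium. It shares its promoter with a start of CLDN16, a kidney claudin for magnesium uptake that also has other starts. The shared CLDN16 start lay 30 bp from the No gRNA summit (chr3:190322160-190322744, in an exon of CLDN16 and 125 bp upstream of the CLDN1 start). The pileup there was 27 in No gRNA and 8 in All gRNA, and the peak width was 585 bp and 200 bp. The depth-scaled ratio was 0.399 (0.157 to 0.902), and with scaling by the median ratio of all shared peaks it was 0.430 (0.169 to 0.972). The promoter pileup was thus lower in the All gRNA library. Both ends of a fragment are counted, so these intervals are too narrow, and the upper limit of 0.972 is close to 1. The peak in an exon towards the 3′ end of CLDN1 (chr3:190306472-190307102) had 34 and 26, with a ratio of 1.03 (0.593 to 1.77). A low peak beyond the gene had 8 read ends in each library. A peak in an intron of CLDN16, 16590 bp upstream of CLDN1, was called in All gRNA only, with a pileup of 7. Of the 3 shared peaks of CLDN1, the promoter was the one with an interval below 1, and whether the 3 ratios differ from each other was not tested.

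CLDN3 and CLDN4 are close relatives that serve as receptors of Clostridium perfringens enterotoxin, and they lie near each other on chromosome 7. CLDN3 had no peak in its body or within 20 kb of its start in either library, which held for 9.66% of protein-coding genes. The nearest peak was at ABHD11, 30810 bp from the CLDN3 start in No gRNA and 30980 bp in All gRNA, with pileups of 104 and 86. CLDN4 likewise had no peak at its main promoter, but it had the tallest peak in its window inside an intron of its longer transcripts (chr7:73822516-73823072), 8186 bp upstream of the main start and 4934 bp upstream of the nearest alternative start. The pileup was 119 (98.6 to 142) in No gRNA and 62 (47.5 to 79.5) in All gRNA, and the deposited −log10 q was 125.6 and 62.0. Its depth-scaled ratio was 0.701 (0.507 to 0.961), and with median scaling the interval reached 1.03. The 201 bases centred on the No gRNA summit are shown because they hold TGANTCA in 2 places, as did 3.92% of peaks listed for No gRNA and 4.24% of those listed for All gRNA, and they hold no CAGGTG.
CLDN4 upstream peak, chr7:73822710-73822910, plus strand: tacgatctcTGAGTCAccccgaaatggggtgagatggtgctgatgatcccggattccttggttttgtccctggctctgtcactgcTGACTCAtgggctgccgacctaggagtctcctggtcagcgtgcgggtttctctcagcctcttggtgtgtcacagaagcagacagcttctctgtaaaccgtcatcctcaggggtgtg

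The other CLDN4 peaks were lower or belonged to neighbours. At an alternative CLDN4 start, a peak of 12 was called in No gRNA only (chr7:73828292-73828550, 219 bp downstream of that start). Scaled to the depth of All gRNA it would be 8.92, and the lowest All gRNA peak with a similar background had 4. A peak in an intron of the longest transcripts had 9 and 8 (ratio 1.20, 0.402 to 3.49). At METTL27, a methyltransferase-like gene downstream of CLDN4, the promoter peak had 52 and 34 (ratio 0.880, 0.554 to 1.38). A peak further on had 65 in No gRNA and 51 in All gRNA, and was not among the paired peaks because the All gRNA peak also met a further No gRNA peak. The ratio of those heights was 1.06 (0.717 to 1.55).

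CLDN7 is expressed along the sides of epithelial cells and binds EPCAM. No peak covered the promoter with 5 CAGGTG copies in either library. In No gRNA the closest peak was downstream, in an exon of ELP5, 1757 bp from an own start, with a pileup of 11. In All gRNA a peak of 5 was called 778 bp upstream of an alternative start (chr17:7264678-7264877), and its −log10 q of 2.75 put it at percentile 1.71 of that list. The taller peaks of the window lay at neighbours. At CTDNEP1, a nuclear envelope phosphatase gene, pileups were 49 and 29 (ratio 0.796, 0.485 to 1.29). At SLC2A4, which encodes the insulin-regulated glucose transporter, the start-site peak had 44 and 17 (ratio 0.520, 0.279 to 0.929, reaching 1.00 with median scaling). Upstream of it a peak of 26 in No gRNA met one of 6 in All gRNA (ratio 0.311, 0.105 to 0.771), with summits 338 bp apart. The larger difference in the CLDN7 window was therefore 18393 bp upstream of the main CLDN7 start and next to SLC2A4.

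**Figure D2:**
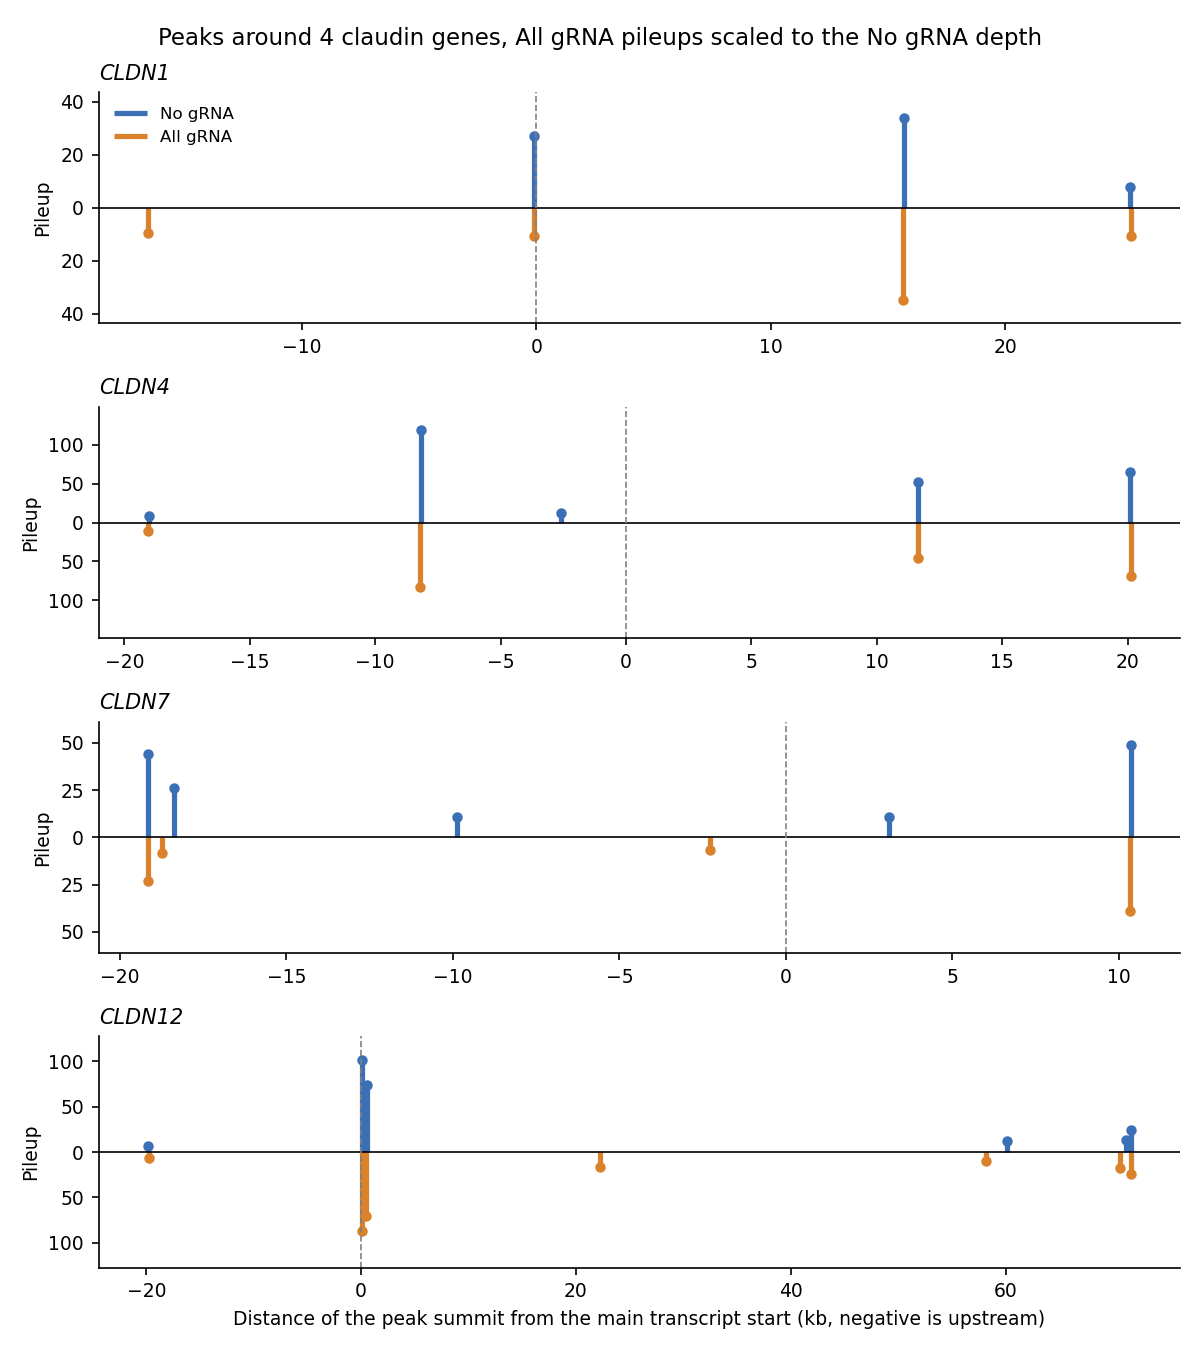
Each panel shows the peaks of CLDN1, CLDN4, CLDN7 or CLDN12 by the distance of the summit from the main start (x axis, kb, negative is upstream) and by pileup (y axis, read ends), with No gRNA upwards and All gRNA, scaled to the No gRNA depth, downwards. CLDN12 and CLDN1 have peaks at their start, the tallest CLDN4 peak is 8186 bp upstream, and CLDN7 has none at its main start.

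CLDN6 and CLDN9 are neighbours on chromosome 16, CLDN6 being known from embryonic epithelium and CLDN9 from the inner ear, and their windows share peaks. CLDN9 had no peak within 4000 bp of its start, and the nearest was 7920 bp away in No gRNA and 7924 bp in All gRNA. CLDN6 had no peak at its main start either, and its nearest was 2660 bp and 2664 bp away. The tallest peak of this window in both libraries, with 187 and 123 (ratio 0.885, 0.699 to 1.12), was at the start of the unnamed gene ENSG00000289281. The peaks counted as CLDN6 promoter peaks lay at TNFRSF12A, the TWEAK receptor gene, and at HCFC1R1. At TNFRSF12A the paired peaks had 52 and 39 (ratio 1.01, 0.649 to 1.56) and 59 and 45 (ratio 1.03, 0.680 to 1.54). This stretch had a local background of 13.7 to 13.8 read ends in No gRNA and 9.12 to 9.38 in All gRNA, against medians of 1.20 and 0.840 over all peaks. Within it a peak of 50 was listed in No gRNA only and another of 36 in All gRNA only. At the HCFC1R1 start the heights were 108 and 59, outside the paired set because peaks met more than 1 partner, with a ratio of 0.735 (0.526 to 1.02). At BICDL2 a peak of 20 was listed in No gRNA only, and one of 7 in an intron of MMP25-AS1 (chr16:3039688-3039887) in All gRNA only.

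CLDN8 and CLDN11 had distal or weak peaks. CLDN8, a sealing claudin of the kidney collecting duct, had none within 4000 bp, and its peaks lay 9318 bp downstream and 11936 bp upstream of the start (chr21:30206624-30207527 and chr21:30227690-30228223). The upstream peak had 29 and 30, the highest ratio among the shared claudin peaks at 1.39 (0.807 to 2.40), and the downstream one had 22 and 15 (ratio 0.918, 0.443 to 1.85). Both held TGANTCA in each library. CLDN11, the claudin of myelin and of the testis barrier, had peaks of 8 and 12 in No gRNA and 1 peak of 6 in All gRNA, and none was shared. Its CpG-rich main promoter was without a peak.

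CLDN23, a claudin of the intestinal lining, is a single-exon gene with 1 start. In No gRNA a peak of 430 bp spanned the start (chr8:8701648-8702077), with a pileup of 18. In All gRNA the same stretch was called as 2 peaks, each with a pileup of 10. The ratio of the highest pileups was 0.748 (0.308 to 1.71). The gene was thus open at its start in both libraries, and the heights were not separated at this depth.

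Across all windows, each library had 31 distinct peaks, which covered 12311 bp in No gRNA and 11060 bp in All gRNA. Their median pileup was 27 in No gRNA (range 7 to 187) and 17 in All gRNA (range 5 to 123). In each library 13 of the 31 were nearest to a start of a listed claudin and 18 to that of another gene. Of the No gRNA peaks, 9 (29.0%, exact 95% interval 14.2 to 48.0) had no overlap in the other list, against 24.7% of all peaks on chromosomes 1 to 22 and X. Of the All gRNA peaks, 8 (25.8%, 11.9 to 44.6) had none, against 23.8%. These shares lay near the background in both libraries.

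The 18 peaks that met a single peak of the opposite library, and were met by it alone, were compared by depth-scaled pileup. Their summed pileups were 924 and 590, a ratio of 0.859 (0.774 to 0.954), against 0.8997 for the sums over all pairs. With median scaling it was 0.926 (0.834 to 1.03), an interval that holds 1, against 0.969 for the sums over all pairs on that scale. The median log2 ratio was −0.10, against −0.11 over all 48041 paired peaks, and these medians lay close together. Ratios were below 1 at 11 of the 18, against 58.1% of all pairs, and at 9 of the 18 with median scaling. None was 2-fold higher with an interval above 1, against 2.44% of all pairs, and 2 were 2-fold lower with an interval below 1, against 3.27%. Those were the CLDN1 promoter and the peak upstream of SLC2A4. The interval lay below 1 at 4 of the 18, against 8.85% of all pairs, and above 1 at 0, against 3.42%, and with median scaling it lay below 1 at 2. At the other 14 the depth-scaled interval held 1. The intervals reached as low as 0.241 and as high as 4.11, so differences of that size could not be seen at the lower peaks.

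**Figure D3:**
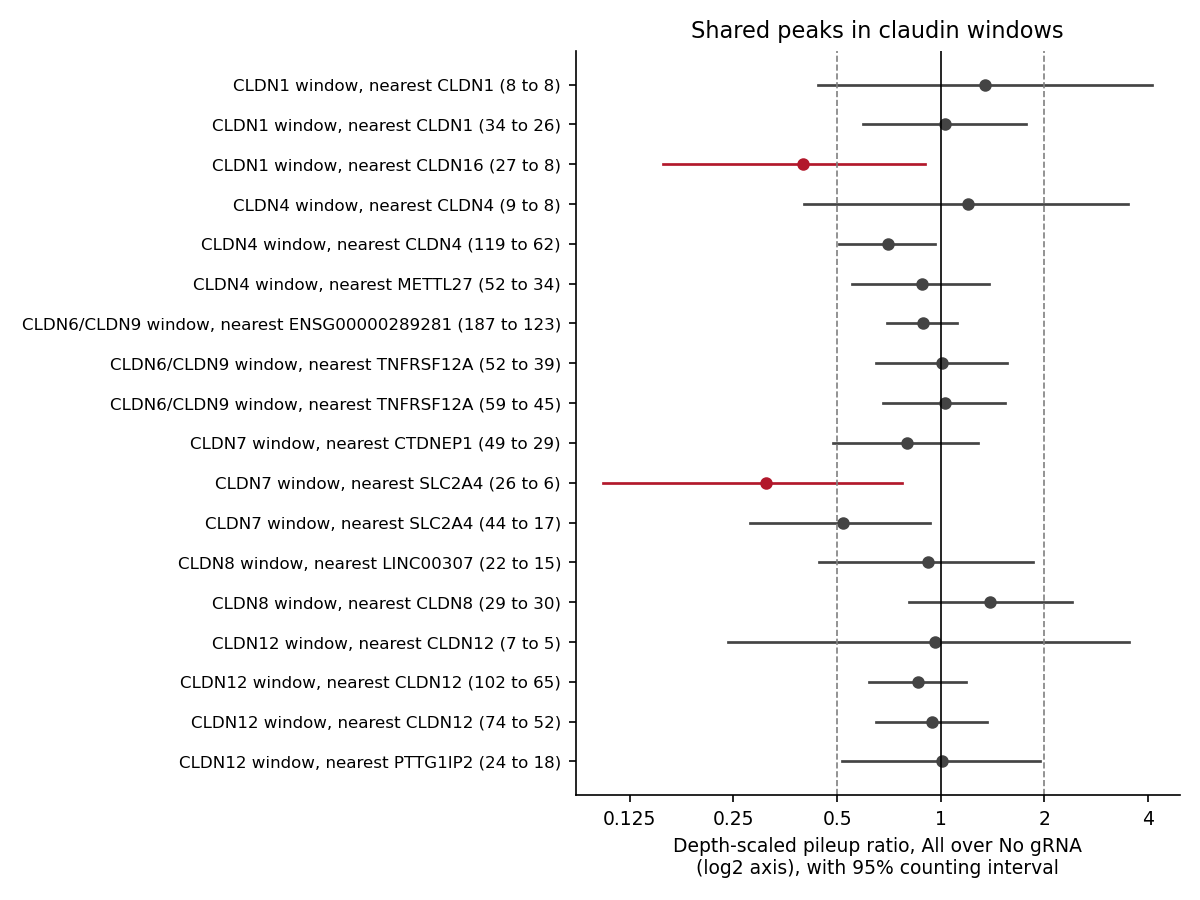
Points give the depth-scaled pileup ratio, All gRNA over No gRNA (log2 x axis), of the 18 shared peaks with 95% counting intervals, and the y axis names the window, the nearest gene and both pileups. The peaks in red, at CLDN1 and CLDN16 (0.399) and upstream of SLC2A4 (0.311), are more than 2-fold lower with intervals below 1.

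Motifs at the open sites were counted within 100 bp of each summit. CAGGTG was found at 4 of 31 peaks in each library (12.9%, 3.63 to 29.8), against 11.6% of the whole No gRNA list and 13.1% of the All gRNA list. In No gRNA 3 of these lay at TNFRSF12A or HCFC1R1 and 1 at CLDN23. In All gRNA 2 lay at TNFRSF12A or HCFC1R1, 1 at CLDN23, and 1 was the All gRNA peak of 7 in the intron of MMP25-AS1, which held 2 copies. TGANTCA was found at 5 No gRNA peaks (16.1%, 5.45 to 33.7) and at 7 All gRNA peaks (22.6%, 9.59 to 41.1), against 30.3% and 31.2% of all peaks. The share of CAGGTG at claudin peaks was close to that of all peaks, and the copies in the CLDN7 and CLDN3 promoters lay outside any peak.

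The rest of the claudin family and the partners of the tight junction gave the context. Of 14 other claudins, 5 had a peak within 4000 bp of a start in No gRNA and 3 in All gRNA, beside 74.3% and 73.9% of all protein-coding genes. In No gRNA only it was 2 of the 14, beside 2.92% of all genes. CLDN14, CLDN16 and CLDN25 had one in both libraries. CLDN2, which forms a cation pore, had a peak of 14 in No gRNA only, just upstream of a start, and CLDN18, known from stomach and lung, one of 11 in No gRNA only. At CLDN25 the peak had 12 and 21, a ratio of 2.35 (1.11 to 5.25). It was the only paired peak near these other claudins that was 2-fold higher with an interval above 1, beside 2.44% of all pairs. The only one 2-fold lower with an interval below 1, beside 3.27% of all pairs, was the promoter that CLDN16 shares with CLDN1. The counting intervals are too narrow, and these calls were not tested further. No claudin of either list had a promoter peak, at 4000 bp, in All gRNA only, which held for 2.56% of all protein-coding genes. Lists this short cannot tell none from that share.

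Of 19 partner genes, 16 had a peak within 4000 bp in both libraries, where 74.3% and 73.9% of all protein-coding genes had one in No gRNA and All gRNA, among them OCLN (occludin) and TJP1 and TJP3, which encode ZO proteins. ILDR1 and MARVELD2, genes of the tricellular junction, and MARVELD3 had one in neither. None of the paired partner peaks was past 2-fold with an interval that left out 1. LSR, which recruits tricellulin to tricellular contacts, had a peak within 1000 bp in All gRNA only, with a pileup of 51, and was described by the study from the same libraries, so it is not independent evidence. The TJP1 start had 22 and 15 (ratio 0.918, 0.443 to 1.85). Peaks without a partner in the other list were as many in No gRNA as in All gRNA near these genes. Over all peaks on chromosomes 1 to 22 and X, 24.7% and 23.8% had no partner. The share near these genes was not computed, so the peaks below are listed without a background. In No gRNA 8 such peaks, with pileups of 7 to 37, lay near 6 genes (AMOTL1, CGN, F11R, MPDZ, OCLN and TJP3), and the one of 37 was at AMOTL1. In All gRNA 8, with pileups of 5 to 51, lay near 7 genes (F11R, JAM3, LSR, MAGI1, OCLN, PARD3 and PATJ), and after LSR the next in height was at F11R, with 17.

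**Figure D4:**
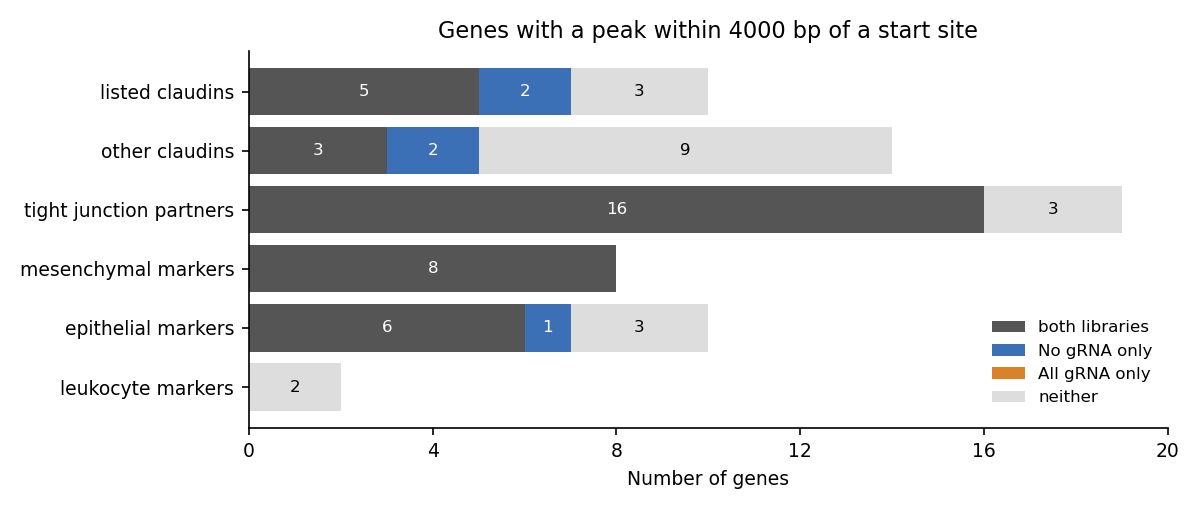
Bars count the genes of each list (x axis, number of genes) with a peak within 4000 bp of a start in both libraries, in either one alone or in neither. Of the 10 listed claudins 5 have one in both and 3 in neither, against 16 and 3 of the 19 tight junction partners.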

How the data were processed

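ATAC-seq of 2 SUM159 populations, 1 library each, was analysed. Per the study's methods, the authors trimmed reads with fastp, aligned them to hg38 with bowtie2, removed mitochondrial, excluded-region and duplicate reads with SAMtools, and called peaks in each library with MACS2 without a control. Versions were not given in the sources used here. The deposited peak lists hold a score, a fold ratio over the local background, and −log10 p and −log10 q of each peak. As both ends of a fragment are counted, counting intervals are too narrow.

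The summit pileup and background were recovered from the deposited fold, taken as (pileup + 1) over (background + 1), and the Poisson −log10 p (100% within 0.01). On data simulated with the same formula 100% of pileups were recovered, which does not check that the formula holds for the deposited lists. The simulated backgrounds were lower than those at TNFRSF12A and HCFC1R1. Pileups were scaled by the ratio of lowest backgrounds (0.743), and ratios carry exact conditional binomial 95% intervals. Peaks were matched by 1 bp of overlap and annotated with GENCODE release 44 (hg38), whose chromosome ends no peak passed. Sequences came from hg38 and from RefSeq. With 1 library per group no test was made. Python 3.11.15, SciPy 1.17.1, pandas 2.3.3 and pysam 0.24.0 were used.

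The 10 claudins, the other lists and the motifs were chosen with earlier results of these data known, and 2 genes of the other lists are not reported here. All listed claudins are described, and other genes were named when a promoter peak was in 1 library only or past 2-fold, or when 5 or fewer were of a kind. Alternatives varied the promoter and window size, the q threshold, the matching of peaks, the scaling and the motif window.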

Additional observations from a re-analysis of the deposited data

How the results depend on the processing

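No paired analysis was possible because the groups had only 1 library each. Of 46 alternative values of the main results, 26 stayed close to the value reported and 20 moved. Reversal of a main result was not scored. The median scaling changed all 18 single-peak ratios by the same factor. Each stayed within its interval, which that small factor could not have changed, so this is no check of the ratios. For No gRNA and All gRNA in turn, gene bodies alone held 12 and 11 peaks (4156 and 3656 bp covered) and windows of 50 kb held 54 and 54 (23008 and 20766 bp), as their size sets. All gRNA promoter peaks were found for 8 claudins at 10000 bp, for 3 at a −log10 q of at least 5 and for 2 at 10 or more, and at 10 or more All gRNA kept 16 window peaks. The shares of all genes under these settings were not computed. Peaks without a partner numbered 15 and 15 when an overlap of at least 50% of both was asked, while in All gRNA 3 were left at a −log10 q of 5 and 1 at 10, and in No gRNA 5 at 10. CAGGTG was at 35.5% and 32.3% of claudin peaks within 250 bp of the summit, beside 28.9% and 31.0% of all peaks. With summits within 150 bp, 1 peak was 2-fold lower, the CLDN1 promoter, since the summits upstream of SLC2A4 lay 338 bp apart. The cause of the other moves was not tested. The All gRNA promoter count thus rested partly on low peaks, and a peak missing from a list may lie under that list's threshold.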
